A study of Mus musculus with 12 samples.

Results

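The cells described here are germinal center B cells that the deposited annotation places in the dark zone (DZ) and in the G1 phase of the cell cycle. They were chosen as the cells with the state DZ and the phase G1 that lie outside the deposited clusters 4, 5 and 7. There were 1074 of them among 6000 cells in all, with 271, 365 and 438 from mouse 1, 2 and 3. The germinal center is the site where activated B cells mutate their antibody genes and are selected. Dark zone cells divide and mutate, and light zone (LZ) cells take up antigen on follicular dendritic cells and receive help from T cells. A dark zone cell in G1 has either just left mitosis or has not yet entered the next round of DNA replication, and the chemokine receptor CXCR4 is the textbook surface mark of the zone.

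The 3 mice had been immunised with NP-KLH (the hapten NP coupled to the protein KLH) in Sigma Adjuvant System, and all cells came from draining lymph nodes. Tamoxifen was given by gavage, and the nodes were taken 5 days afterwards, at day 16 of a primary response. Live IgD-negative cells that carried eYFP were sorted, tagged per mouse with barcoded antibodies to CD45 and measured by droplet-based single-cell RNA sequencing from the 5' end. The sources used here do not give the genotype behind the eYFP label, the strain, the sex or the age. Every group shares the immunisation, the tamoxifen and the reporter, so no group is untreated.

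The other classes were DZ S (928 cells), DZ G2M (872), LZ G1 (1168), LZ S (707) and LZ G2M (198), all outside the same 3 clusters. Counts of unique molecular identifiers (UMIs) were summed per mouse and class, and the mice are the replicates (n = 3). Sums of DZ G1 cells held 1624804 to 2566614 UMIs, and their log expression correlated between mice with r from 0.974 to 0.980 across 2903 genes, which are not independent replicates. Levels are CPM, the counts of a sum put on a common total, with totals adjusted by the TMM method, and a class mean is given with its SD over 3 mice. All DZ G1 cells had barcodes of 1 of the 2 barcode series in the matrix, and no barcode occurred in both series.

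The authors made the zone, phase and cluster labels from expression in these same cells. Genes of the S and G2/M lists are therefore given as a description, with no test, where phases are compared, and so are genes of the dark and light zone lists where zones are compared. These lists were chosen here and may not hold every gene that the authors' labels drew on. For other genes, some of which may have shaped the labels, the adjusted p-values measure the spread between mice for classes taken as given. The 3 comparisons with DZ S, DZ G2M and LZ G1 share the same DZ G1 sums.

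Both genes that mark the dark zone were present and set the DZ G1 cells apart from LZ G1 cells. Cxcr4 stood at 82.5, 85.4 and 85.2 CPM in DZ G1 cells of mouse 1, 2 and 3, and at 34.5, 32.4 and 40.4 CPM in LZ G1 cells. Gcsam, which encodes a germinal center adaptor that restrains lymphocyte movement, stood at 298, 314 and 337 CPM in DZ G1 cells and at 168, 126 and 129 CPM in LZ G1 cells. For both genes every DZ G1 value lay above every LZ G1 value, in the direction the zone label implies. Cd83, a light zone surface marker, ran the other way, with 155, 137 and 139 CPM in DZ G1 cells against 642, 543 and 586 CPM in LZ G1 cells. When each cell was thinned to 2000 UMIs, which left out 8 DZ G1 and 11 LZ G1 cells, Cxcr4 had a UMI in 15.2% of DZ G1 cells and 6.74% of LZ G1 cells. The unthinned shares were 37.8% and 17.4% at median depths of 5806 and 5354 UMIs. Plasma cells, at a median depth of 24018 UMIs, showed an unthinned share of 40.1% and a thinned share of 6.57%. Gcsam had a thinned share of 44.0% in DZ G1 cells, 23.5% in LZ G1 cells and 2.92% in plasma cells. Within the dark zone Gcsam was lower in G1 than in S cells (log2 fold change -0.23 ± 0.08, SE, adjusted p 0.0211 by edgeR's quasi-likelihood test), a call and a sign that were lost when each sum was cut to 39 cells, the number in the smallest sum (0.21, adjusted p 0.539). The call was also lost without mouse 2 (-0.20, adjusted p 0.179) and without mouse 3 (-0.26, adjusted p 0.0658).

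The dark zone label covers a range. The deposited zone position of each cell, on a scale computed by the authors without cell cycle genes, ran from 0.502 to 0.938 in DZ G1 cells with a median of 0.617, and from 0.0143 to 0.518 in LZ G1 cells with a median of 0.408. Within 0.02 above the lowest DZ G1 position lay 74 DZ G1 cells, and within 0.02 below it lay 103 LZ G1 cells. Pooled over mice, Cxcr4 stood at 41.9 CPM just inside and 53.5 CPM just outside, against 87.3 CPM in all DZ G1 cells. Gcsam stood at 217 CPM just inside and 186 CPM just outside, Cd83 at 259 and 318 CPM, and Cd86 at 139.8 and 99.9 CPM. RNA of other cell types was near 0 in the DZ G1 sums. Of 8 measured T cell markers 6 or 7 were at 0 in each mouse, and the whole list summed to 0.615 to 1.31 CPM. The myeloid list summed to 0.436 to 2.46 CPM and the erythroid list, of which both measured members were detected, to 8.57 to 13.1 CPM. Only 10 DZ G1 cells held 2 or more UMIs of such lists, against 13 LZ G1 cells.

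G1 cells took a smaller share of the dark zone than of the light zone. They made up 37.4%, 35.3% and 39.2% of the DZ cells of mouse 1, 2 and 3 (37.3% ± 1.98, SD, n = 3) and 56.3% ± 4.20 of the LZ cells. The difference of -19.0 percentage points had the same sign in 3 of 3 mice, and the exact permutation test that flips signs over mice (two-sided) gave p = 0.25, the smallest value that 3 pairs allow. DZ G1 cells were small in RNA terms. Their median depth was 5856.5 UMIs per cell (mean of 3 mice, SD 197), against 9370 ± 205 in DZ S, 9557 ± 339 in DZ G2M and 5375 ± 65.3 in LZ G1 cells. The depth was lower than in DZ S and DZ G2M cells in 3 of 3 mice and higher than in LZ G1 cells in 3 of 3 mice, with p = 0.25 in the same exact permutation test for each. CPM divides by this total, so a gene at equal CPM has fewer UMIs per cell in DZ G1 than in DZ S cells. The part of depth in the differences below was not tested.

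**Figure D1:**
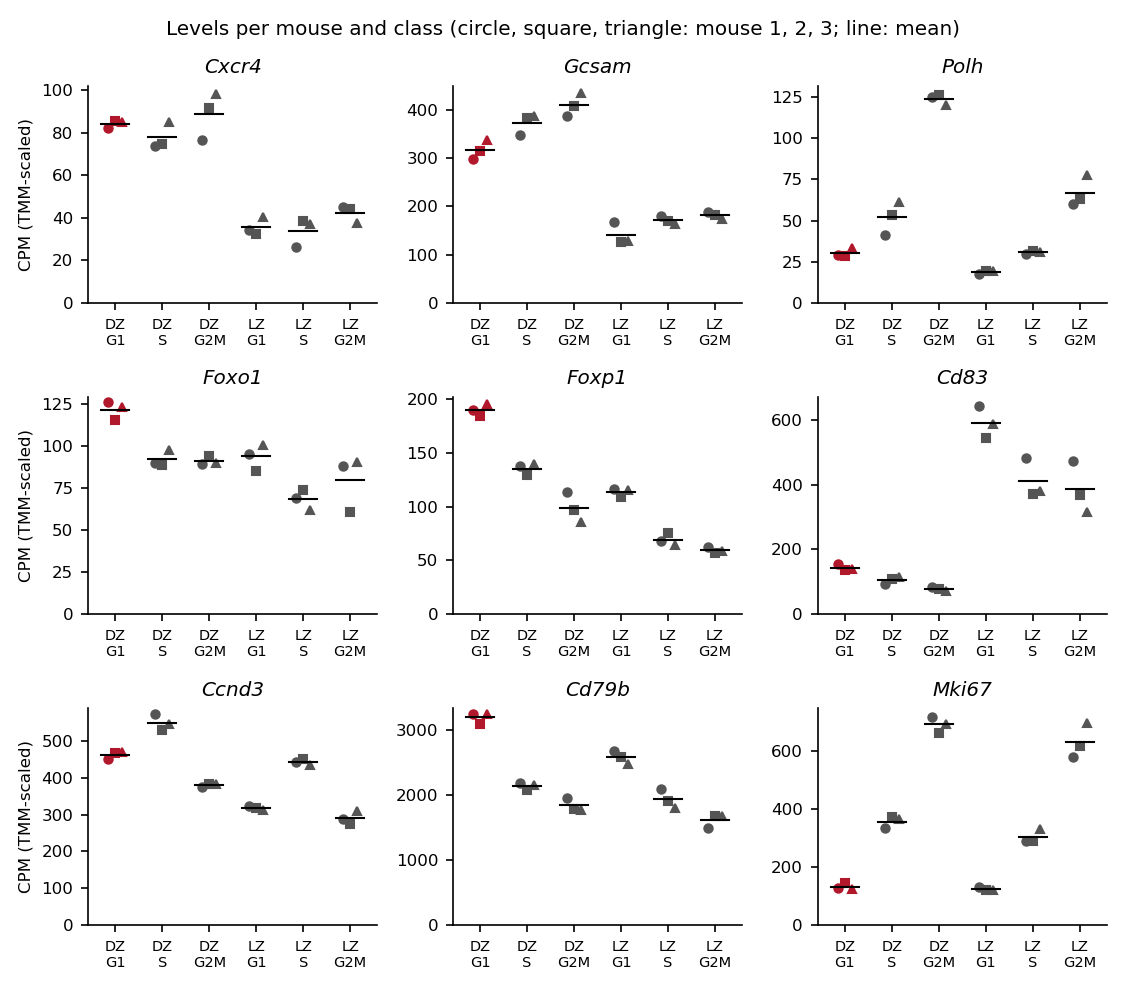
CPM of 9 genes (vertical axis, starting at 0) in each of the 6 classes (horizontal axis). Each point is 1 mouse, lines are means of 3 mice and DZ G1 cells are in red. Cxcr4 and Gcsam separate the zones in every phase, Foxo1, Foxp1 and Cd79b have their highest mean in DZ G1 cells, and Mki67 follows the phase in both zones.

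Replication and mitosis genes, from which phases are called, were low in DZ G1 cells, as the label requires. Against DZ S cells all 43 of 43 S phase genes had a lower level, with a median log2 fold change of -2.29 beside 0.02 over all genes. Against DZ G2M cells all 54 of 54 measured G2/M genes were lower, with a median of -2.996 beside 0.02. Cdc6, which loads the replicative helicase, stood at 9.0, 5.5 and 7.2 CPM in DZ G1 cells and at 103, 113 and 105 CPM in DZ S cells. Mcm5, a subunit of that helicase, stood at 85.5, 95.5 and 83.7 CPM against 451, 500 and 524 CPM. Cdk1, the kinase that drives mitosis, stood at 16.9, 18.5 and 20.0 CPM against 356, 326 and 357 CPM in DZ G2M cells. The phase label was called from such genes, so these gaps were set by the selection. The proliferation marker Mki67 was still at 129, 144 and 124 CPM, and after thinning it had a UMI in 21.2% of DZ G1 cells, 20.2% of LZ G1 cells and 67.3% of DZ G2M cells. Plasma cells had a thinned share of 17.5%, near that of both G1 classes. Their unthinned share was 56.9%, against 49.1% in DZ G1 and 42.9% in LZ G1 cells.

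S phase genes are classic targets of E2F factors, and mitotic genes of complexes that bind the cell cycle homology region (CHR). Stretches before the start sites of 3 members of each list are printed below as examples of these elements. They were picked, after the values were seen, among members far lower in DZ G1 cells because they hold a match. Members without a match before the start site were passed over, so its presence in the printed windows was set by the choice. E2F sites were searched as TTTCCCGC or TTTGGCGC on both strands in the 300 bases around each RefSeq start site (250 before and 50 after, GRCm38.p6). The CHR was searched as TTTGAA or TTCGAA on both strands in the 150 of those bases nearest the 3' end. Neither motif contains the other. The capitals below mark the match, and each window is read 5′ to 3′ along the gene and ends at or before the start site. The E2F windows are at chr11:98907983-98908050 (Cdc6, plus strand), chr8:75109330-75109397 (Mcm5, plus) and chr19:38930898-38930965 (Hells, plus), and the CHR windows at chr10:69352913-69352957 (Cdk1, minus), chr4:118437344-118437391 (Cdc20, minus) and chr2:129297213-129297272 (Ckap2l, minus).
Cdc6: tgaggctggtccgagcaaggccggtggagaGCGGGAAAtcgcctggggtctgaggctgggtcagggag
Mcm5: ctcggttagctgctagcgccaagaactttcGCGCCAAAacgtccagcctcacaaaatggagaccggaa
Hells: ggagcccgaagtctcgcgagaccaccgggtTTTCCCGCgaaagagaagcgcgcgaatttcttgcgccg
Cdk1: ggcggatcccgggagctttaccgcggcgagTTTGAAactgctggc
Cdc20: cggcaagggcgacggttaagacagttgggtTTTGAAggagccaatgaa
Ckap2l: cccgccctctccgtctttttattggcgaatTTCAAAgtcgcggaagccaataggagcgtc
An E2F match was found in 10 of 34 promoters of the 31 S phase genes that matched the RefSeq table (29.4%), against 514 of 32851 promoters in all (1.565%). A CHR match was found in 32 of 52 promoters of 47 matched G2/M genes (61.5%), against 2821 of all (8.59%). A match describes letters in a window and is not a measured binding site.

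Over all genes tested, phase lists included, DZ G1 cells differed from DZ S cells in 3059 of 9105 at an adjusted p under 0.05, or 33.6%. Of these 1277 were higher in DZ G1 cells (14%) and 1782 lower (19.6%). Higher in DZ G1 cells were many surface and antigen presentation genes, and lower were many genes for the G1/S switch, ribosome assembly and glycolysis. Of 12 genes of MHC class II presentation 10 were higher and 0 lower (median log2 fold change 0.43). Cd74, the invariant chain that escorts class II molecules, stood at 22991, 22780 and 22396 CPM in DZ G1 cells and at 16061, 15987 and 15740 CPM in DZ S cells (log2 fold change 0.51 ± 0.03 SE, adjusted p 7.51e-13). H2-Oa, part of the H2-O regulator of peptide loading, was higher by 0.80 ± 0.07 (adjusted p 2.31e-09). MHC class I presentation had 7 of 12 members higher and 0 lower. Light zone genes had 5 of 15 higher and 1 lower (median 0.32), and dark zone genes 4 of 9 higher and 2 lower (median 0.11).

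Of 23 B cell receptor signalling genes 13 were higher than in DZ S cells and 0 lower, with a median of 0.24. Cd79b, a signalling chain of the receptor, stood at 3249, 3089 and 3241 CPM in DZ G1 cells and at 2179, 2080 and 2154 CPM in DZ S cells (log2 fold change 0.58 ± 0.04, adjusted p 8.04e-10). Syk and Lyn, the kinases that start the signal, were higher by 0.52 and 0.49 (adjusted p 2.58e-07 and 1.3e-06). Each Cd79b value in DZ G1 cells lay above all values in the other 5 classes. Of 21 receptors, integrins and G protein regulators of migration 8 were higher and 0 lower, among them Cxcr5, the receptor for the follicular chemokine CXCL13 (0.45, adjusted p 0.000257), and Icam2 (0.61, adjusted p 4.06e-05). Cxcr4 itself did not pass the test (0.11 ± 0.09, adjusted p 0.39).

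Among transcription factors of the B lineage 7 of 19 were higher and 1 lower, beside 14% and 19.6% of all genes. Foxp1 stood at 190, 185 and 195 CPM in DZ G1 cells and at 138, 129 and 140 CPM in DZ S cells (0.49 ± 0.08, adjusted p 3.21e-05). Foxo1, the factor that maintains the dark zone program, stood at 126, 116 and 123 CPM against 89.6, 88.9 and 97.6 CPM (0.40 ± 0.09, adjusted p 0.00171). Bach2, a repressor that keeps B cells from becoming plasma cells, was higher by 0.33 ± 0.07 (adjusted p 0.00128), and Pou2af1, a coactivator of antibody genes, lower by a log2 fold change of -0.36 (adjusted p 2.97e-06). Bcl6, the master factor of the germinal center, was higher by 0.29 ± 0.10 (adjusted p 0.0224), and Pax5 did not pass (0.16 ± 0.07, adjusted p 0.104), though it did with G1 cells of cluster 0 alone (0.31, adjusted p 0.00313). The Bcl6 call was lost without mouse 2 (0.20, adjusted p 0.244), with the G1 cells below the median in cycle transcripts (0.32, adjusted p 0.0578) and with cells away from the zone boundary (0.24, adjusted p 0.12). When each sum was drawn to 39 cells Bcl6 stood at -0.0032 (adjusted p 0.997).

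Of 21 mutation genes 2 were higher and 6 lower, beside 14% and 19.6% of all genes. Neil1, a DNA glycosylase abundant in germinal center cells, stood at 587, 543 and 540 CPM in DZ G1 cells and at 447, 472 and 452 CPM in DZ S cells (0.28 ± 0.06, adjusted p 0.000468). Polh, the error-prone polymerase eta, was at 28.9, 28.6 and 33.2 CPM against 41.1, 53.4 and 61.1 CPM (-0.79 ± 0.11, adjusted p 1.1e-05). Msh6, of the mismatch recognition complex, and Apex1, the main abasic site endonuclease, had log2 fold changes of -0.87 and -0.97. Pms2, Exosc3 and Atm were the other lower ones.

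The genes that carry a cell from G1 into S were low. Of 18 cyclins, kinases and E2F factors tested 0 were higher and 14 lower than in DZ S cells, with a median of -1.22. Ccne1, the cyclin E that starts replication, had a log2 fold change of -2.79, and E2f1 of -1.50. Cdk4, the kinase partner of D cyclins, stood at 164, 169 and 161 CPM against 365, 364 and 374 CPM (-1.16 ± 0.05, adjusted p 1.04e-13). Ccnd3, the D cyclin that dark zone cells use for their divisions, changed far less, with 451, 466 and 470 CPM against 574, 529 and 546 CPM (-0.25 ± 0.05, adjusted p 0.000188). Ccnd2 had 2, 3 and 1 UMIs in the DZ G1 sums. The CDK inhibitors and antiproliferative genes did not move as a group. Of 15 tested 2 were higher and 3 lower, near the 14% and 19.6% of all genes. The 2 were Btg1 (260 ± 6.08 CPM against 165 CPM, 0.65 ± 0.07) and Btg2 (0.66), and Cdkn1b, which encodes p27, did not pass (-0.50 ± 0.29, adjusted p 0.195).

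Biosynthesis genes were lower than in DZ S cells too. Of 22 ribosome biogenesis genes 13 were lower and 0 higher (median -0.50), among them nucleolin, Ncl, at 436, 429 and 422 CPM against 593, 644 and 618 CPM (-0.53, adjusted p 8.45e-09). Of 13 glycolytic enzymes 9 were lower and 0 higher, with Ldha, lactate dehydrogenase, at -0.65 ± 0.05 (adjusted p 1.52e-09). Of 16 chromatin enzymes 7 were lower, including Dnmt1, the methyltransferase that copies DNA methylation at the fork (-1.53), and Ezh2, the Polycomb methyltransferase (-1.43). Of 80 cytosolic ribosomal protein genes 49 were lower and 2 higher, with a small median of -0.11 that changed sign to 0.03, with 3 lower and 7 higher, when each sum was drawn to 39 cells. Myc stood at 13.2, 14.7 and 13.6 CPM against 33.2, 22.4 and 30.4 CPM (-1.02 ± 0.19, adjusted p 0.000212).

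By the size of the change, the genes highest in DZ G1 over DZ S cells outside the phase and zone lists were Pxdc1, Cytip, Mylip, Il4i1, Neurl3, Trim12a, Pbxip1, Tnfaip8l2, Rnase6 and Slfn2. Cytip, a cytohesin-binding protein that tempers integrin adhesion, stood at 81.9, 85.0 and 80.7 CPM against 40.2, 39.5 and 37.7 CPM (1.08 ± 0.11, adjusted p 7.23e-08). The lowest were Hist1h2ap, Pbk, Mybl2, Cenpk, Cenph, Esco2, Brca1, Fbxo5, Tcf19 and Rfc4, from -3.40 to -2.80. Without mouse 3 the counts fell to 742 higher and 1324 lower, without mouse 2 to 832 and 1375, and with 39 cells a sum to 208 and 439.

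Against DZ G2M cells 3220 of 9105 genes differed (35.4%), 1450 higher in DZ G1 cells (15.9%) and 1770 lower (19.4%). MHC class II again had 10 of 12 members higher (median 0.33), with 1 lower, H2-DMb1, whose product loads peptide onto class II (-0.39). B cell receptor signalling had 11 of 23 higher and 0 lower, with Cd79b at 1952, 1788 and 1776 CPM in DZ G2M cells (0.80 ± 0.04, adjusted p 2.59e-12) and Lyn at a log2 fold change of 0.72. Of 19 B lineage factors 10 were higher, led by Foxp1 (0.96 ± 0.08, adjusted p 2.17e-09) and Ikzf3 (0.57), and 3 were lower, Tcf3, Pou2af1 and Ikzf1. Tcf3 encodes E2A, a dark zone factor, and was at 226, 258 and 245 CPM in DZ G1 cells and 344, 323 and 339 CPM in DZ G2M cells (-0.46 ± 0.06, adjusted p 9.96e-07). S1pr2, the receptor that confines B cells to the germinal center, was higher by 0.63 (adjusted p 7.67e-08). Light zone genes had 5 of 15 higher and 0 lower (median 0.31), and dark zone genes 4 of 9 higher and 4 lower (median -0.08).

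Polh reached 125, 126 and 120 CPM in DZ G2M cells, so DZ G1 cells were lower by a log2 fold change of -2.03 ± 0.11 (adjusted p 7.51e-13). Within the dark zone the order of Polh was thus G2M above S above G1, with no overlap between neighbours. Ccnd3 was at 376, 382 and 382 CPM, lower than in DZ G1 cells (0.29 ± 0.05, adjusted p 3.51e-05), so its order was S above G1 above G2M. Gcsam was lower in DZ G1 cells than in DZ G2M cells (-0.37 ± 0.08, adjusted p 0.000563). In the BCL2 family, which decides survival, 6 of 18 were higher and 1 lower, beside 15.9% and 19.4% of all genes. The 6 included the proapoptotic Bmf and Bcl2l11, which encodes BIM (0.54 ± 0.15, adjusted p 0.00914), and the protective Mcl1 (0.39).

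Of the antiproliferative list 2 of 15 were higher, Btg1 and Btg2, and 6 were lower, among them the CDK inhibitors Cdkn2c (-1.78) and Cdkn2d (-1.64). Over all genes 15.9% were higher and 19.4% lower, so 2 higher members are no more than that share gives. The anaphase-promoting complex list, whose enzyme degrades mitotic cyclins, had 11 of 17 members lower and 0 higher. Histone cluster genes had 36 of 40 lower. Ribosome biogenesis had 3 of 22 higher and 4 lower (median 0.08), unlike against DZ S cells. Ribosomal protein genes had 15 of 80 higher and 17 lower, and glycolytic enzymes 0 of 13 higher and 6 lower. The genes highest in DZ G1 over DZ G2M cells were Pxdc1, Il4ra, Ncf1, Slfn2, Cyp4f18, Fdx1l, Cd2, Tnfaip8l2, Mxd4 and Ltb. Ltb, lymphotoxin beta, stood at 951, 927 and 962 CPM against 398, 410 and 408 CPM (1.22 ± 0.07, adjusted p 3.66e-12). Il4ra, the receptor chain for IL-4 from follicular helper T cells, stood at 87.9, 62.7 and 66.0 CPM against 20.5, 26.9 and 22.7 CPM (1.58 ± 0.12, adjusted p 5.53e-10). Mxd4, a MAX partner that represses MYC targets, was higher by 1.25 and its relative Mxd3 lower by a log2 fold change of -4.80, with 4.2, 3.4 and 3.0 CPM against 98.7, 87.2 and 105 CPM. The other lowest genes were Spc25, Kifc1, Hist1h2ap, Pbk, Ccnf, Ska1, Kif22, Plk1 and Neil3. Without mouse 3 the higher count fell to 880, and with 39 cells a sum the counts were 339 higher and 547 lower.

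**Figure D2:**
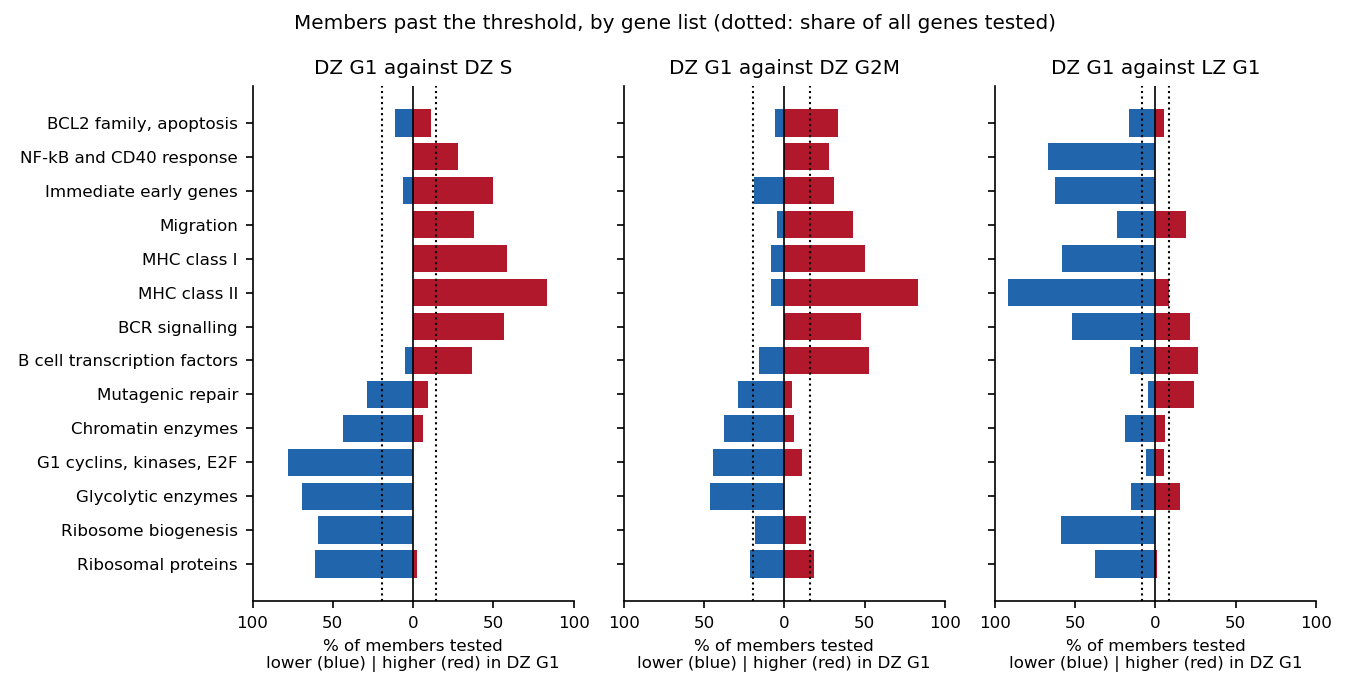
Share of the tested members of 14 gene lists (vertical axis) that were higher (red, to the right) or lower (blue, to the left) in DZ G1 cells at an adjusted p under 0.05, in percent, against DZ S, DZ G2M and LZ G1 cells. Dotted lines mark the share of all genes tested: MHC class II runs right in both phase comparisons and left against LZ G1 cells.

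With the phase held at G1, DZ and LZ cells differed in 1563 of 9105 genes (17.2%), 778 higher in DZ G1 cells (8.54%) and 785 lower (8.62%). LZ G1 cells carried more of the genes of antigen presentation, CD40 and NF-kB signalling and ribosome assembly. Hmces, Neil1 and Pou2af1 were among the genes higher in DZ G1 cells. For the dark and light zone lists the log2 fold changes are a description. Among dark zone genes they were 1.23 for Cxcr4, 1.19 for Gcsam, 0.74 for Foxp1, 0.69 for Polh, 0.56 for Tcf3, 0.37 for Foxo1, 0.07 for Bach2 and -0.07 for the helicase Pif1. Light zone genes had a median of -1.52, from -2.77 for Nr4a1, of which the DZ G1 sums held 2, 7 and 1 UMIs, to -0.27 for Bcl2a1b. Fcer2a, which encodes CD23, was at 99.9, 90.4 and 111 CPM against 319, 316 and 331 CPM, and Cd86 at 95.1, 94.2 and 95.1 CPM against 207, 183 and 175 CPM. Myc, which marks cells that received help, was at 13.8 ± 0.775 CPM against 40.6 ± 9.36 CPM.

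MHC class II presentation had 11 of 12 members lower and 1, the protease Lgmn, higher (median -0.60). Cd74 was at 35239, 34134 and 33142 CPM in LZ G1 cells (-0.59 ± 0.03, adjusted p 5.68e-13), and H2-Aa at 4534, 4215 and 4188 CPM in DZ G1 cells against 7303, 6904 and 6773 CPM (-0.70 ± 0.03, adjusted p 5.68e-13). DZ G1 cells thus lay between LZ G1 and DZ S cells for both genes, with no overlap. MHC class I had 7 of 12 lower and 0 higher. Of 18 NF-kB and CD40 response genes 12 were lower and 0 higher (median -0.83). The 7 of them that are not light zone markers were Nfkb2, Relb, Ebi3, Nfkbiz, Nfkbie, Birc3 and Rel. Relb, a subunit of the noncanonical pathway, stood at 21.1, 31.1 and 31.7 CPM against 72.2, 76.4 and 65.8 CPM (-1.31 ± 0.13, adjusted p 9.81e-08).

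B cell receptor genes did not move one way between the zones. The membrane chain Cd79b, the kinases Syk and Btk and the adaptors Blnk and Dok3 were higher in DZ G1 cells, 5 of 23, and 12 were lower. The lower ones included the inhibitory coreceptors Cd72 (-1.52, adjusted p 1.97e-07), Cd22 (-0.53, adjusted p 2.01e-05) and Fcgr2b (-0.75, adjusted p 0.00808) and the phosphatase Ptpn6 (-0.53). Immediate early genes, which report recent signalling, had 10 of 16 lower and 0 higher. Outside the light zone markers these were Ier2 (-1.58, adjusted p 6.39e-07), Jun, Junb (-0.93, adjusted p 1.32e-06), Dusp2, Ier5, Zfp36l1 and Zfp36.

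The mutation list had 5 of 21 members higher, 3 of them outside the dark zone list, and 1 lower, beside 8.54% and 8.62% of all genes. Hmces, which shields abasic sites in DNA, stood at 696, 744 and 708 CPM in DZ G1 cells and at 346, 341 and 342 CPM in LZ G1 cells (1.06 ± 0.07, adjusted p 3.11e-10). Neil1 stood at 587, 543 and 540 CPM against 343, 315 and 330 CPM (0.76 ± 0.06, adjusted p 4.53e-09), and Poli, polymerase iota, was higher by 0.68 (adjusted p 0.0465). The exception was Apex1, at 47.0, 62.7 and 44.5 CPM against 84.7, 91.6 and 99.4 CPM (-0.85 ± 0.11, adjusted p 1.24e-05).

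Outside the zone lists, Pou2af1 (0.61, adjusted p 9.52e-09) and Pax5 (0.34 ± 0.08, adjusted p 0.00362) were the other B lineage factors that were higher, though Pax5 was lost without mouse 1 (0.27, adjusted p 0.0649), while Bcl11a (-0.65, adjusted p 6.84e-07), Pou2f2 (-0.45) and Irf8 (-0.24) were lower. Bcl6 did not pass (-0.13 ± 0.10, adjusted p 0.409). Among plasma cell genes Jchain, the chain that joins IgM and IgA, stood at 1601, 1444 and 1388 CPM against 942, 837 and 804 CPM (0.78 ± 0.05, adjusted p 1.06e-10), and Mzb1, an antibody secretion cofactor, was higher by 0.56. The chaperones Hsp90b1 (-0.56) and Pdia4 (-0.61) were lower, so the list did not move as one. Of 11 antibody constant region genes 5 were higher and 1 lower, beside 8.54% and 8.62% of all genes. Igha (1.04, adjusted p 0.00202) and Iglc1 (0.61, adjusted p 1.4e-07) were among the higher and Ighg1 was lower (-0.28, adjusted p 0.0331). Near-identical constant regions may share reads. Jchain did not differ detectably between DZ G1 and DZ S cells (-0.00 ± 0.05, adjusted p 0.966).

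Ccnd3 was at 451, 466 and 470 CPM in DZ G1 cells and at 324, 318 and 312 CPM in LZ G1 cells (0.55 ± 0.05, adjusted p 2.59e-08). Ccnd2 ran the other way and was scarce in both zones. It had 17, 23 and 37 UMIs in the LZ G1 sums beside 2, 3 and 1 in the DZ G1 sums. The same LZ G1 sums held 516, 607 and 919 UMIs of Ccnd3. As log2 of mean CPM plus 0.5, the zone difference of Ccnd3 was 0.54 in G1, 0.31 in S and 0.39 in G2M cells. That of Ccnd2 was -3.08, -2.45 and -1.68. Ccnd3 and Ccnd2 were the 2 of the 18 members of their list that passed the test in G1. Of 22 ribosome biogenesis genes 13 were lower and 0 higher (median -0.33), with Ncl at 523, 557 and 537 CPM in LZ G1 cells (-0.33, adjusted p 2.95e-05) and Gnl3 at -0.88 (adjusted p 0.00637). Leaving out mouse 2 reduced this list to 4 lower, and taking only the G1 cells below the median in cycle transcripts reduced it to 5. Bcl2l11, which encodes the proapoptotic BIM, was higher in DZ G1 cells, with 22.3, 26.5 and 29.4 CPM against 13.2, 14.1 and 13.2 CPM (0.97 ± 0.17, adjusted p 0.000309). Of 18 BCL2 family genes it was the 1 that was higher, and Bid, Fas and Bcl2a1d were the 3 that were lower. Over all genes 8.54% were higher and 8.62% lower, so 1 higher member is no more than that share gives.

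The genes highest in DZ G1 over LZ G1 cells outside the phase and zone lists were Rgcc, Pafah1b3, Arl5c, Myl4, Cdc25b, Eif2ak3, Lipc, Mbd2, Ifi27l2a and Hmces. Rgcc, a regulator of cell cycle kinases, stood at 176, 180 and 159 CPM against 37.0, 51.8 and 42.4 CPM (1.97 ± 0.10, adjusted p 4.71e-12). Eif2ak3 encodes PERK, a kinase of the unfolded protein response, and stood at 78.3, 78.7 and 85.3 CPM against 37.0, 38.2 and 30.9 CPM (1.21 ± 0.10, adjusted p 2.22e-08). The lowest were Il4i1, Snn, Ier2, Cd72, Samsn1, Bcl3, Lmo2, Nfkb2, Relb and Lck. Il4i1, an amino acid oxidase induced by IL-4 and CD40, stood at 81.9, 75.7 and 78.8 CPM against 596, 412 and 554 CPM (-2.71 ± 0.11, adjusted p 3.03e-13). The counts fell to 408 higher and 490 lower without mouse 3, to 431 and 459 without mouse 2, to 450 and 426 in the G1 cells below the median in cycle transcripts, and to 86 and 111 with 39 cells a sum.

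A set of G2/M transcripts was higher in DZ G1 than in LZ G1 cells although both classes carry the G1 label. Of 54 such genes 12 were higher and 3 lower, beside 8.54% and 8.62% of all genes. Their median was 0.04 beside -0.01 over all genes. Ccnb2, a mitotic cyclin, stood at 122, 135 and 120 CPM in DZ G1 cells and at 40.8, 38.2 and 39.7 CPM in LZ G1 cells (1.67 ± 0.09, adjusted p 3.11e-11). Cenpa, the centromeric histone, stood at 77.0, 111 and 102 CPM against 49.6, 48.7 and 49.2 CPM (0.99 ± 0.10, adjusted p 1.36e-07). The others that were higher were Psrc1, Cks1b, Ube2c, Cdca3, Cdca8, Hmgb2, Birc5, Cdc20, Hjurp and Lbr. Top2a, the topoisomerase, Smc4, a condensin subunit, and Cks2 were lower, and Cdk1 did not pass (0.13 ± 0.15, adjusted p 0.705). S phase genes had 2 of 43 higher and 3 lower, no more than the shares of all genes give. In the G1 cells below the median in cycle transcripts 5 of the 54 were higher and 0 lower, where 450 genes in all were higher and 426 lower.

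These transcripts lay unevenly within the DZ G1 cells. The deposited clusters, which the authors made from expression, split them into 879 cells of cluster 0 (82.0% ± 2.21 per mouse), 174 cells of cluster 3 (16.0% ± 2.22) and 21 cells of cluster 2. Cluster 0 also held 1157 LZ G1 cells, cluster 3 also held 346 DZ G2M cells and 8 LZ G1 cells, and cluster 2 also held 533 DZ S cells. Cluster 3 cells of the DZ G1 class numbered 37, 66 and 71 in mouse 1, 2 and 3. Since the clusters come from the same expression values, what follows is a description with no test. The summed S and G2/M lists took a median of 8696 CPM per cell in cluster 3 and 5456 CPM in cluster 0, against 24955 CPM in DZ G2M cells, and Mki67 was at 147 and 133 CPM.

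Of 46 G2/M genes 30 were higher in cluster 3 than in cluster 0, with a median log2 difference of 0.24 beside -0.07 over all genes. Ccnb2 stood at 356, 437 and 405 CPM in cluster 3 and at 74.9, 47.2 and 54.2 CPM in cluster 0, with a mean of 498 CPM in DZ G2M cells. Hmgb2, a chromatin protein, had means of 2327 and 787 CPM, and Stmn1, which destabilises microtubules, of 824 and 293 CPM. Cks1b, Birc5, Cdca8, Cdkn3 and Cenpa were also higher in every mouse, and the variant histone H2afz (2150 against 830 CPM) and the nucleosome binder Hmgn2 (2045 against 800 CPM) too. Of 18 transcription factors of the B lineage 3 were higher in cluster 3 (median -0.20 beside -0.07 over all genes). Bach2 had means of 77.9 and 204 CPM in cluster 3 and cluster 0, Pax5 of 76.7 and 129 CPM, Foxp1 of 203 and 193 CPM, Cd86 of 49.4 and 108 CPM and Fcer2a of 41.7 and 116 CPM. Of 12 MHC class II genes 0 were higher in cluster 3 (median -0.52), and of 11 antiproliferative genes also 0. Of 13 light zone genes 4 were higher in cluster 3 (median -0.67), and Cd83 had means of 83.6 and 158 CPM in cluster 3 and cluster 0. Of 8 dark zone genes 3 were higher (median -0.08), with Foxo1 at 120 and 124 CPM, Cxcr4 at 68.2 and 90.8 CPM and Gcsam at 428 and 292 CPM. An alternative chosen after the data were seen took G1 cells of cluster 0 alone. There 7 G2/M genes were higher and 3 lower against LZ G1 cells, and 10 of 12 MHC class II genes were lower. In that setting 644 genes in all were higher and 589 lower.

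**Figure D3:**
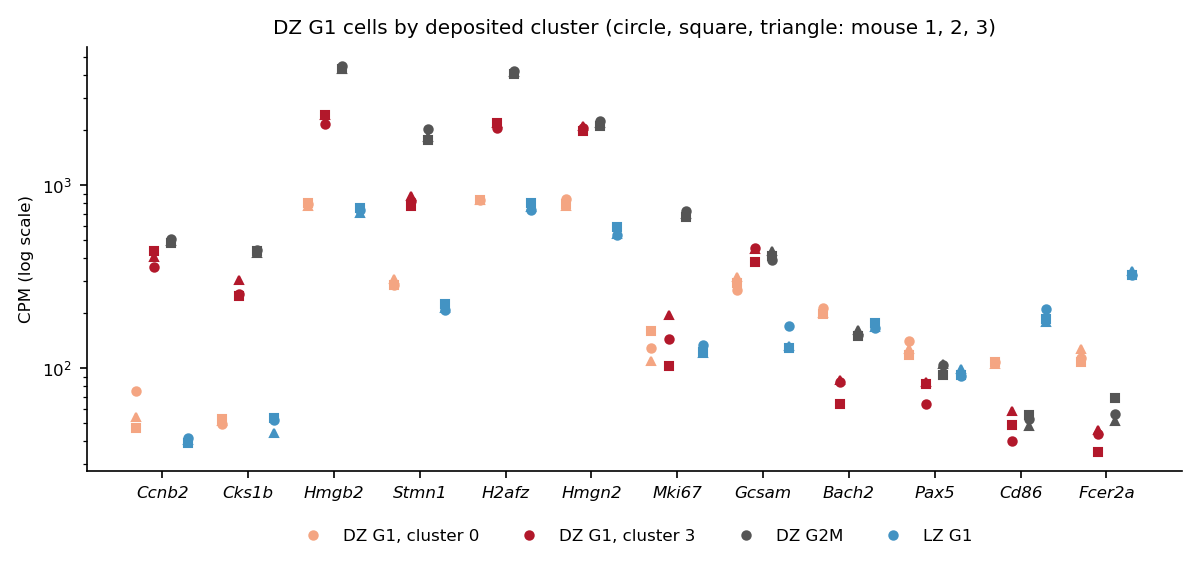
CPM on a log axis of 12 genes (horizontal axis) in DZ G1 cells of cluster 0, DZ G1 cells of cluster 3, DZ G2M cells and LZ G1 cells, 1 point per mouse. For Ccnb2, Cks1b, Hmgb2, Stmn1, H2afz and Hmgn2 cluster 3 lies between cluster 0 and DZ G2M cells, whereas Mki67 does not separate the clusters.

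The last comparison asked where the zone difference in G1 departed from that in S and G2M cells. The difference itself was tested, as the zone difference in G1 minus the average of those in S and G2M. It passed for 130 of 9105 genes (1.43%), 24 in the higher direction (0.264%) and 106 in the lower (1.16%). For the zone genes, given as a description, the departure was 0.09 for Cxcr4, 0.03 for Gcsam and 0.07 for Cd83, each under its SE of 0.11 to 0.14. Of 12 MHC class II, 23 B cell receptor and 18 NF-kB genes 0 passed in either direction. With 1.43% of all genes passing, lists of this size can hold 0 by that share alone.

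Among the 10 named genes of the higher direction were the chromatin genes Hmgn2, H2afz and H2afv and the mitotic spindle genes Stmn1, Knstrn and Spc24. Stmn1 stood at 377, 403 and 416 CPM in DZ G1 cells and at 206, 220 and 210 CPM in LZ G1 cells, whereas the S classes had means of 1376 and 1272 CPM and the G2M classes of 1863 and 1859 CPM. Its zone difference, as log2 of mean CPM plus 0.5, was 0.91 in G1, 0.11 in S and 0.00 in G2M cells, and the test gave 0.86 ± 0.07 (adjusted p 1.36e-07). Hmgn2 stood at 1055, 1056 and 1019 CPM in DZ G1 cells and at 524, 579 and 527 CPM in LZ G1 cells, and gave 0.76 ± 0.05 (adjusted p 5.24e-09). With G1 cells of cluster 0 alone Stmn1 gave 0.49 (adjusted p 0.000975) and Hmgn2 0.44, while H2afz gave 0.03 (adjusted p 0.891), H2afv 0.20 (adjusted p 0.188) and Knstrn 0.39 (adjusted p 0.565). Pim1, a survival kinase, gave 0.64 ± 0.11 (adjusted p 0.00147) in all cells.

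The lower direction was made up mainly of ribosomal protein genes. Of 80 such genes 69 passed as lower and 0 as higher, with a median of -0.24 beside -0.03 over all genes. Rpl32 stood at 3957, 3771 and 3820 CPM in DZ G1 cells and at 4235, 4167 and 3978 CPM in LZ G1 cells, so DZ was slightly below LZ in G1 (-0.10), and above it in S (0.21) and G2M cells (0.26). The count moved with the processing: it was 25 without mouse 2, 38 without mouse 1, 49 without cells holding RNA of other types, 47 with G1 cells of cluster 0 alone and 0 with 39 cells a sum, where the median was -0.18. Marcksl1, a binder of actin and calmodulin, stood at 135, 134 and 135 CPM in DZ G1 cells and at 348, 304 and 312 CPM in LZ G1 cells, with a zone difference of -1.25 in G1, -0.56 in S and -0.55 in G2M cells (-0.68 ± 0.09, adjusted p 0.00013).

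**Figure D4:**
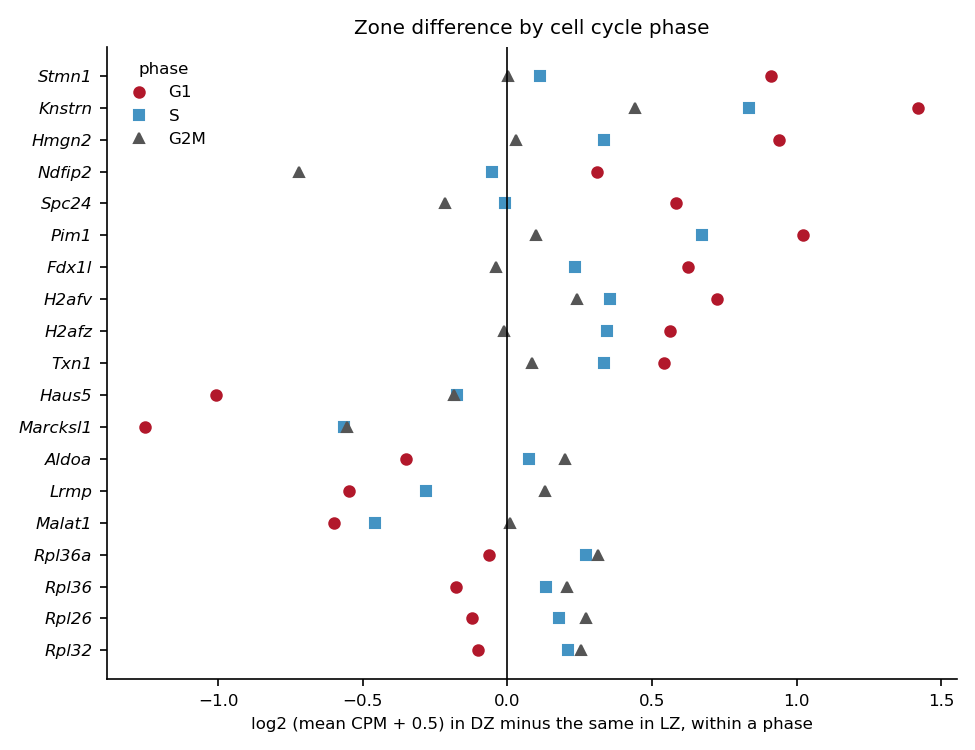
Zone difference (horizontal axis, log2 of mean CPM plus 0.5 in DZ minus the same in LZ) within G1, S and G2M cells for 19 of the genes with the largest departure in G1. For Stmn1 and Hmgn2 the G1 point stands far to the right of the others, and for the 4 ribosomal protein genes it lies left of 0 while S and G2M lie right.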

How the data were processed

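Cells of lymph nodes from 3 mice were measured by 5' single-cell RNA sequencing. The authors deposited 1 matrix of UMI counts, 13886 genes by 6000 cells, with a table of mouse, state, phase and cluster for each cell and a zone position deposited as a score. The submitters' processing notes name Cell Ranger, Seurat, mm10 and GRCm38. The versions and the role of each are not stated. The 12 sequencing libraries cannot be told apart within the matrix, so the mouse of each cell came from the deposited cell table. Whether doublets had been removed before deposit is not stated there, and no caller was run. Cells with 2 or more UMIs of other cell types were left out in an alternative.

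Counts were summed per mouse and class (at least 20 cells a sum, 18 sums), filtered with filterByExpr and fitted at once with edgeR 4.0.16 in R 4.3.3 (TMM, quasi-likelihood test, class plus mouse). Benjamini-Hochberg adjustment ran over all 9105 genes tested with a threshold of 0.05, and all adjusted p-values are from this fit unless another is named. The genes named per comparison were the 10 largest changes in each direction among those called, with at least 50 CPM in the higher class and the same direction in each mouse, leaving out antibody segments, predicted genes, mitochondrial genes and the phase and zone lists, plus 15 fixed genes and the leading members of each list. A few genes that this rule covers are not reported here. The members and lists were chosen with earlier results of these data known. Classes of 1 mouse come from the same animal. Their deviations from the class means correlated with a median r of 0.452 (lowest 0.163, 45 pairs) over 2903 genes, against -0.234 for different mice (90 pairs), so mouse was kept as a block. On simulated counts for DZ G1 against DZ S (8998 genes) the test recovered 40 of 100 genes changed by a log2 of 0.5 and 94 of 100 changed by 1. The changed genes were drawn from those with a mean fitted count above 20, so recovery at lower counts was not tested. Alternatives used DESeq2 1.42.0, other filters, cells and replicates.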

Additional observations from a re-analysis of the deposited data

Results flagged for a closer look

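For the 19 genes given here the zone difference in G1 cells departed from that in S and G2M cells by the test of the difference itself. The same direction in 3 of 3 mice was a condition for being named. Values are log2, from edgeR's quasi-likelihood test with adjustment over 9105 genes, of which 1.43% passed. In the higher direction stood Stmn1 (0.86, adjusted p 1.36e-07), Knstrn, a kinetochore and spindle protein (0.76, adjusted p 0.0156), Hmgn2 (0.76, adjusted p 5.24e-09), Ndfip2, an adaptor of ubiquitin ligases (0.70, adjusted p 0.00969), and Spc24, a kinetochore subunit (0.68, adjusted p 0.0131). With them were Pim1 (0.64, adjusted p 0.00147), Fdx1l (0.55, adjusted p 0.0393), the histone variants H2afv (0.43, adjusted p 0.000322) and H2afz (0.39, adjusted p 1.67e-05), and Txn1, thioredoxin (0.33, adjusted p 0.000283). The zone difference of Ndfip2 was 0.31 in G1, -0.05 in S and -0.72 in G2M cells.

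In the lower direction stood Haus5, an augmin subunit (-0.83, adjusted p 0.0328), Marcksl1 (-0.68, adjusted p 0.00013), the glycolytic enzyme Aldoa (-0.49, adjusted p 9.97e-05), Lrmp (-0.46, adjusted p 0.002) and the nuclear RNA Malat1 (-0.37, adjusted p 0.00169). The ribosomal protein genes were Rpl36a (-0.36, adjusted p 0.00153), Rpl36 (-0.35, adjusted p 0.000804), Rpl26 (-0.35, adjusted p 2.43e-05) and Rpl32 (-0.33, adjusted p 0.000322). Malat1 stood at 2603, 2328 and 2575 CPM in DZ G1 cells and at 3791, 3663 and 3918 CPM in LZ G1 cells. Of these 19 genes Stmn1 passed with 39 cells a sum (0.92, adjusted p 0.00229) and the other 18 did not. Those 18 kept their sign in that setting. Knstrn, Spc24, Fdx1l and Haus5 lost the call whichever mouse was left out, with adjusted p values from 0.0687 to 0.222, 0.0809 to 0.183, 0.156 to 0.62 and 0.0719 to 0.479. Ndfip2 lost it without mouse 1 (0.62, adjusted p 0.168) and without mouse 3 (0.57, adjusted p 0.419), Lrmp without mouse 3 (-0.47, adjusted p 0.0695), and Pim1 (0.62, adjusted p 0.109), Malat1 (-0.36, adjusted p 0.0518), Rpl36a (-0.29, adjusted p 0.0518) and Rpl36 (-0.28, adjusted p 0.0636) without mouse 2. With G1 cells of cluster 0 alone Spc24 stood at 0.28 (adjusted p 0.68), Knstrn at 0.39 (adjusted p 0.565), Fdx1l at 0.55 (adjusted p 0.0669), H2afv at 0.20 (adjusted p 0.188), H2afz at 0.03 (adjusted p 0.891) and Malat1 at -0.21 (adjusted p 0.143). In the G1 cells below the median in cycle transcripts these genes also missed the threshold, with adjusted p values from 0.176 (Malat1) to 0.905 (H2afz). Ndfip2 (0.75, adjusted p 0.093) and Haus5 (-0.90, adjusted p 0.279) missed it there too.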

How the results depend on the processing

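Drawing 39 cells for each sum moved every count: 208 higher and 439 lower against DZ S, 339 and 547 against DZ G2M, 86 and 111 against LZ G1, and 1 and 0 for the zone difference in G1 against cycling cells, where fewer UMIs enter each sum. In that setting Gcsam (0.21, adjusted p 0.539) and Bcl6 (-0.0032, adjusted p 0.997) changed sign against DZ S. Leaving out 1 mouse gave 742 to 978 higher and 1324 to 1601 lower against DZ S, 880 to 1162 and 1325 to 1573 against DZ G2M, 408 to 614 and 459 to 639 against LZ G1, and 14 to 18 and 39 to 98 for the zone difference. The G1 cells below the median in cycle transcripts gave 450 and 426 against LZ G1 and 64 lower for the zone difference. For the latter, 67 were lower without cells holding RNA of other types and 68 with cluster 0 alone, and 51 were higher with DESeq2's Wald test and 42 without antibody genes. The cause was not tested.

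Without the mouse as a block the pairing was ignored and counts were 1106 and 1689 against DZ S, 1308 and 1669 against DZ G2M, 678 and 653 against LZ G1, and 19 and 80 for the zone difference, all within 1.5 times the values reported. Bach2 against DZ G2M missed the threshold there (0.20, adjusted p 0.0584), in each fit without 1 mouse, and with clusters 4, 5 and 7 kept (0.10, adjusted p 0.404). Across settings the median of all genes stayed between -0.07 and 0.06. A fit of the compared classes alone was not run for the zone difference, which needs all 6. Depth limits genes such as Ccnd2, with 1 to 3 UMIs in a DZ G1 sum.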
